A study of Mus musculus with 20 samples.

Results

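The hippocampus and the neocortex of wild-type (WT) mice were compared through the abundance of their mRNAs. The comparison held 10 of the 20 samples of the series: 5 WT hippocampi and 5 WT neocortices, chosen by sample title. All 10 came from male mice on a C57BL/6J background aged 13.5 months, which carried no deletion of the miR-324 gene and had received no treatment named in the labels. The other 10 samples, from mice without miR-324, were not used here. The WT line descended from crosses of heterozygous animals whose founders were of mixed C57BL/6 and CBA/ca origin before backcrossing. The tissue called neocortex here, after the study, is labelled as cerebral cortex. The labels number the samples of each region 1 to 5 without saying that a number marks the same mouse, so the p-values below measure the spread between these samples.

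The hippocampus and the neocortex are neighbouring parts of the cerebral cortex, built from related glutamatergic neurons and the same families of inhibitory and glial cells. The hippocampus is folded into the dentate gyrus, whose granule cells send mossy fibres to field CA3, and the CA3, CA2 and CA1 fields of pyramidal cells. The neocortex is stacked in layers, in which the upper layers mostly connect cortical areas and the deep layers send axons to the thalamus, brainstem and spinal cord. Each field and layer is known for a set of marker genes, and the regions differ in their receptors, ion channels and hormone sensitivity. In bulk tissue, fewer cells of a type and less RNA per cell cannot be told apart.

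Sequencing gave 12752439 to 15857771 estimated counts per hippocampal sample and 14238291 to 15071527 per neocortical sample, and the mRNAs of the mitochondrial genome took 10.02% to 12.3% and 9.29% to 11.8% of them. The first principal component carried 55.5% of the variance and placed all 5 hippocampi on one side and all 5 neocortices on the other. Some libraries held markers of tissue next to the region. Summed over the 10 choroid plexus markers, the level was 45.9, 83.2, 4598, 112 and 54.8 CPM (counts scaled to a common library size) in hippocampal samples 1 to 5, and 20.2, 56.1, 41.8, 22.8 and 17.4 CPM in neocortical samples 1 to 5. Hippocampal sample 3 thus stood far above all others, and it was also the highest of the hippocampal samples for blood, ependymal and meningeal markers. Summed over the 9 markers of striatal projection neurons, neocortical sample 2 reached 563 CPM, against 213 to 305 CPM in the other neocortical samples and 183 to 214 CPM in the hippocampal samples. Thalamic markers were highest in hippocampal sample 5, at 182 CPM against 93.8 to 131 CPM in the other hippocampal samples.

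Of 14894 genes with enough counts to test, 5378 (36.1%) differed between the regions at an adjusted p of at most 0.05 in edgeR's quasi-likelihood test, 2699 (18.1%) of them higher in the hippocampus and 2679 (18.0%) higher in the neocortex. Such genes are named "called" below. With the share of called genes this large, a difference of at least 2-fold was counted as well: 858 genes (5.76%) reached it, 432 (2.9%) in the hippocampus and 426 (2.86%) in the neocortex. The 5 samples of one region did not overlap the 5 of the other in 3940 genes (26.5% of those tested). The median log2 fold change of all genes tested was -0.00077, where a positive value means higher in the hippocampus. Without hippocampal sample 3 and neocortical sample 2, 4448 genes were called, 2293 of them higher in the hippocampus and 2155 higher in the neocortex, and 399 and 401 of these by at least 2-fold. Means below are given ± SD over n = 5 samples of a region, and adjusted p-values are from edgeR over all genes tested.

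**Figure D1:**
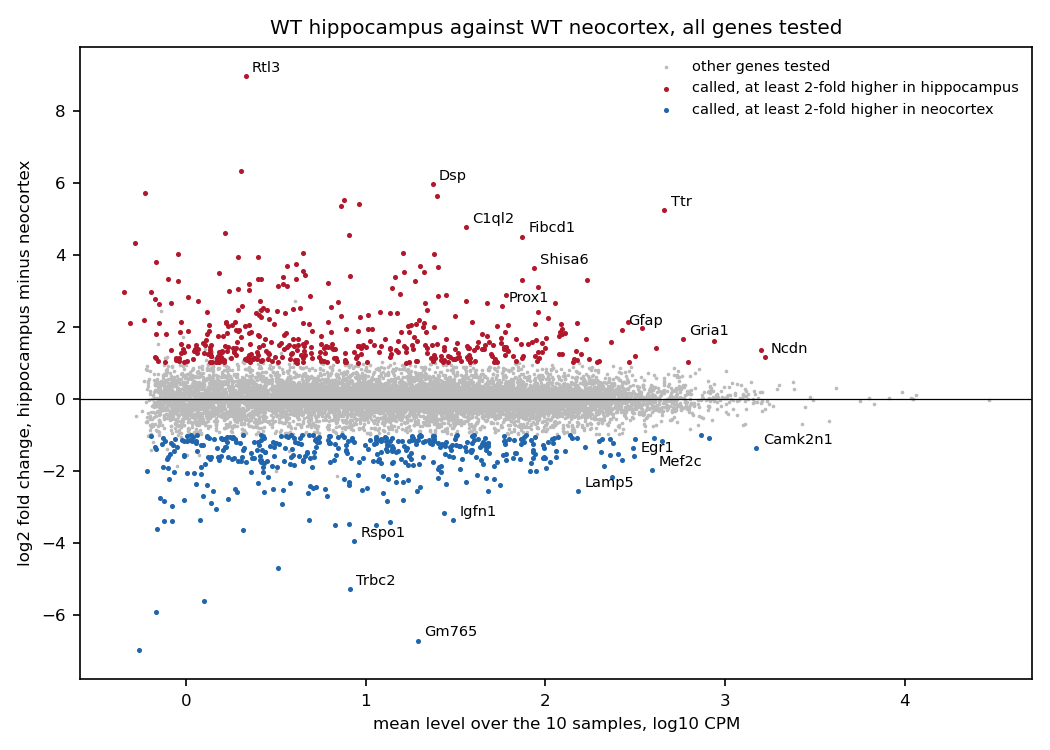
Each point is 1 of the 14894 genes tested, with the mean level over the 10 samples as log10 CPM on the x axis and the log2 fold change, hippocampus minus neocortex, on the y axis. The 432 genes called at least 2-fold higher in the hippocampus are red, the 426 called at least 2-fold higher in the neocortex are blue and all others grey. The uppermost point, Rtl3, was at 0 in all 5 neocortical libraries, so its plotted fold depends on the small count added before taking logs.

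The genes with the largest differences had little mRNA in the other region. Dsp (desmoplakin, which anchors intermediate filaments at cell junctions; GRCm38 chr13:38151294-38198577, forward strand) was at 43.8, 48.9, 64.7, 43.8 and 31.3 CPM in hippocampal samples 1 to 5 and at 1.48, 0.431, 1.31, 0.0701 and 0.3404 CPM in neocortical samples 1 to 5. The lowest hippocampal value lay far above the highest neocortical value, and the log2 fold change was 5.96 ± 0.33 (SE, adjusted p = 2.2e-08). Lct (lactase, known in the brain as a granule cell marker; chr1:128284756-128328318, reverse strand) was at 48.8 ± 8.91 CPM in the hippocampus and 0.973 ± 0.157 CPM in the neocortex, a log2 fold change of 5.64. C1ql2, a secreted C1q-like protein of mossy fibre synapses (chr1:120340582-120343174, forward strand), was at 42.9, 76.2, 97.2, 80.2 and 53.1 CPM in the hippocampal and 4.45, 0.574, 3.27, 3.01 and 1.29 CPM in the neocortical samples. It varied 2.26-fold among hippocampi without overlapping the neocortex, with a log2 fold change of 4.78 ± 0.33. Fibcd1, a membrane receptor that marks CA1 (chr2:31813290-31846005, reverse strand), was at 136, 128, 171, 141 and 134 CPM and 5.12, 7.61, 5.62, 6.17 and 6.81 CPM in the same order of samples. This was the tightest of these differences, at 4.51 ± 0.11 (adjusted p = 2.88e-11).

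Others with high levels in the hippocampus and little mRNA in the neocortex were Shisa6, an auxiliary subunit of AMPA receptors (160.2 ± 19.2 CPM in the hippocampus and 12.96 ± 2.97 CPM in the neocortex), Npy2r, a receptor for neuropeptide Y that damps transmitter release (45.5 ± 6.88 CPM in the hippocampus and 2.75 ± 1.37 CPM in the neocortex), and Ndst4, a heparan sulfate sulfotransferase (30.4 ± 2.36 CPM in the hippocampus and 1.82 ± 1.02 CPM in the neocortex). Il16, the precursor of interleukin 16 (3.51), Rasd1, a Ras-like protein induced by glucocorticoids (3.52), Slc9a4, a sodium-proton exchanger (5.51), Spink8, a protease inhibitor (5.34), and the homeobox gene Lhx9 (4.55) completed the group, with log2 fold changes in parentheses. Lrrc10b, a leucine-rich repeat protein, was at 3.67 with all samples and at 4.47 without neocortical sample 2, where it reached 10.2 CPM against at most 3.5 CPM in the other neocortical samples.

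In the opposite direction, the largest difference in a gene of at least 10 CPM was that of Gm765, a predicted protein-coding gene (chr6:98235708-98342754, reverse strand), at 0.0646, 0.769, 0, 0.312 and 0.677 CPM in the hippocampal samples and 47.7, 47.5, 25.8, 48.7 and 23.8 CPM in the neocortical samples. Neocortical samples 3 and 5 held about as much as each other and less than the other 3, and all 5 were far above the hippocampus (-6.72 ± 0.42, adjusted p = 6.37e-08). Trbc2, annotated as a constant segment of the T cell receptor beta chain (chr6:41546730-41548352, forward strand), was at 14.7, 16.9, 14.6, 16.5 and 17.2 CPM in neocortical samples 1 to 5 and at 0.129, 0.769, 0.194, 0.234 and 0.677 CPM in the hippocampal samples, a log2 fold change of -5.29 ± 0.25. Its 5 neocortical values were nearly equal. Rspo1, a secreted activator of Wnt signalling that marks layer 4 (chr4:124986430-125009099, forward strand), was at 15.2, 14.9, 16.1, 20.7 and 14.1 CPM in the neocortical and 0.9696, 1.41, 1.097, 0.391 and 1.28 CPM in the hippocampal samples (-3.95 ± 0.20). Neocortical sample 4 was the highest, and the regions did not overlap.

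The rest of this group mixed matrix, muscle-type and signalling genes. Abi3bp, a matrix protein, had a log2 fold change of -3.47, the metalloprotease Adam33 of -3.51, the dickkopf-like Dkkl1 of -3.52 and the predicted genes Gm11549 and AC124108.1 of -3.17 and -2.71. Myl4, an alkali myosin light chain of the embryonic and atrial heart, was at 2.33 ± 0.708 CPM in the hippocampus and 25.1 ± 1.85 CPM in the neocortex. Cckbr, the main brain receptor for cholecystokinin, was at 13.8 ± 4.24 CPM in the hippocampus and 81.4 ± 9.06 CPM in the neocortex, and Adra1b, a noradrenaline receptor, was at 3.44 ± 1.57 CPM in the hippocampus and 21.5 ± 3.42 CPM in the neocortex. The potassium channel Kcnh4 (-2.83), the Ras exchange factor Rasgef1c (-2.81) and Coch, a secreted matrix protein (-2.57), followed. Igfn1, an immunoglobulin and fibronectin domain protein, was at 16.5 CPM in hippocampal sample 1 and at 1.33 to 4.66 CPM in the other hippocampi, and its log2 fold change went from -3.38 to -4.51 without that sample.

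Ranked per length, in units scaled by transcript length (TPM), the most abundant genes with a 2-fold difference included the following. Hpca (hippocalcin, a calcium sensor) averaged 1864 TPM in the hippocampus and 624 TPM in the neocortex. Its CPM were 1283, 1332, 1468, 1232 and 1258 in the hippocampal samples and 406, 513, 407, 416 and 416 in the neocortical samples, of which sample 2 was the highest, and its log2 fold change was 1.61 with and 1.68 without that sample. Ncdn (neurochondrin), Ddn (dendrin, of the postsynaptic density) and Cpne6 (copine 6, a calcium-binding protein of spines) were 2.25-, 2.53- and 4.39-fold higher in the hippocampus, and the kinase Ptk2b and the imprinted Nnat (neuronatin) 2.01- and 4.29-fold. In the neocortex, Stmn1 (stathmin, which destabilises microtubules) averaged 1171 TPM against 511 TPM. Camk2n1, an inhibitor of CaMKII, was at 836 ± 128 CPM in the hippocampus and 2156 ± 183 CPM in the neocortex. Arpp19, a phosphatase inhibitor, was 3.63-fold, Osbpl1a, an oxysterol-binding protein, 2.88-fold, the calcium-binding Cabp1 2.57-fold and Stx1a, the presynaptic syntaxin, 2.80-fold higher in the neocortex. Ccl27a was 2.22-fold higher in the neocortex, a value that is uncertain because near-identical copies of the gene lie beside it.

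Markers of the hippocampal fields were higher in the hippocampus in 28 of 31 tested members of the 4 field lists, against 18.1% of all genes, and 18 of them by at least 2-fold, against 2.9%. These lists, like all gene lists used here, were chosen with earlier results of these data known, so the counts are descriptive. All 10 dentate granule cell markers were called (median log2 fold change 2.04). Prox1, the homeobox factor that keeps granule cell identity, was at 75.95, 109.9, 112, 114 and 80.1 CPM in the hippocampal and 17.6, 16.6, 15.6, 15.3 and 17.9 CPM in the neocortical samples. No values overlapped, and the log2 fold change was 2.57 ± 0.12. Tdo2, a tryptophan-degrading enzyme, Glis3, a zinc finger factor, Dock10, a guanine nucleotide exchange factor, and Sema5b, a semaphorin, had values of 3.13, 1.504, 1.22 and 0.34. Among the 8 CA3 markers, 7 were higher in the hippocampus. Homer3, a scaffold protein of the postsynapse, was at 49.5 ± 4.301 CPM in the hippocampus and 6.66 ± 0.8597 CPM in the neocortex, Grik4, a kainate receptor subunit, at 52.3 ± 10.2 CPM in the hippocampus and 23.9 ± 0.7798 CPM in the neocortex, and Cpne4 (copine 4), the Bcl-2 relative Bok and the adhesion protein Nectin3 had log2 fold changes of 1.13, 0.64 and 0.405. The exception was Coch, already described as higher in the neocortex.

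Of the 6 CA2 markers tested, 5 were higher in the hippocampus, and 4 without hippocampal sample 3. Rgs14, a regulator of G-protein signalling that limits plasticity in CA2, was at 87.98 ± 3.39 CPM in the hippocampus and 32.5 ± 2.67 CPM in the neocortex, and the calcium-binding Necab2 at 86.8 ± 5.84 CPM in the hippocampus and 27 ± 5.52 CPM in the neocortex. Amigo2, an adhesion protein, had a log2 fold change of 1.36, and of 1.22 without hippocampal sample 3, its highest sample. Pcp4, a calmodulin-binding peptide that also marks deep neocortical layers, went the other way (99.6 ± 13.9 CPM in the hippocampus and 190.0 ± 28.7 CPM in the neocortex, adjusted p = 1.92e-05). A vasopressin receptor of CA2, Avpr1b, had too few counts to test. For CA1, 6 of 7 markers were higher in the hippocampus: beside Fibcd1, Spink8 and Ndst4, the factor Pou3f1 was at 1.09, Wfs1, a protein of the endoplasmic reticulum, at 0.95 and Ccn3, a secreted matrix protein, at 0.59. Mpped1, a metallophosphoesterase that is also made in upper neocortical layers, was not called (245 ± 35.99 CPM in the hippocampus and 249 ± 15.4 CPM in the neocortex, adjusted p = 0.852).

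**Figure D2:**
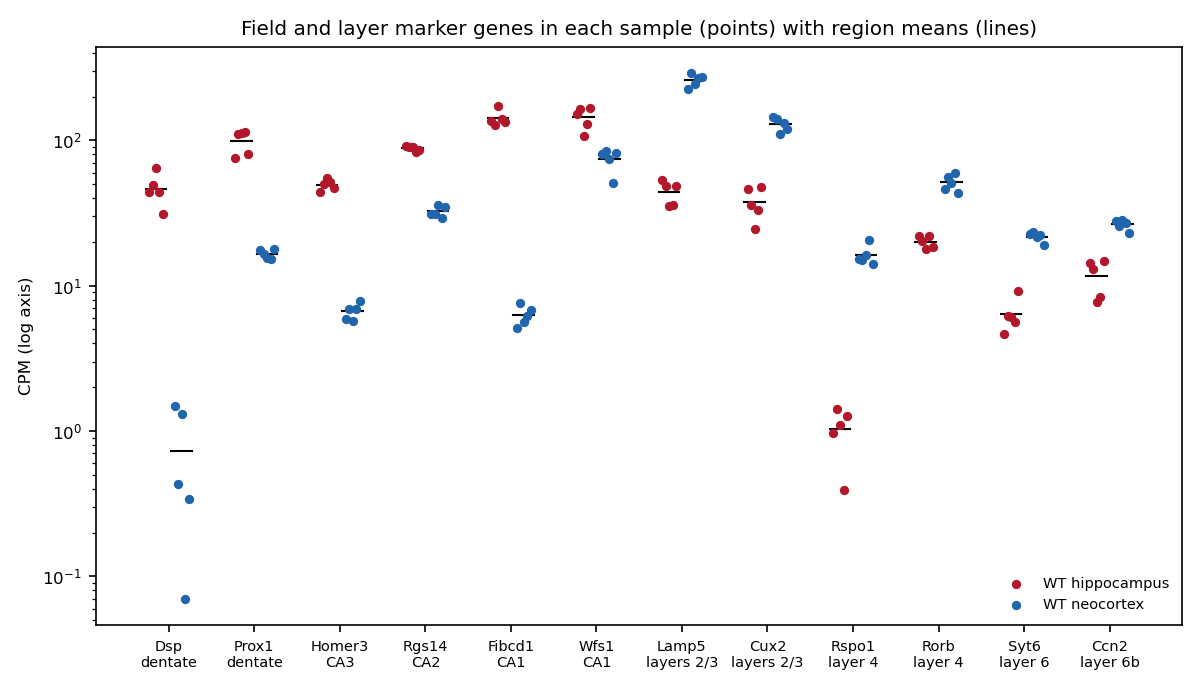
CPM on a log axis of 6 field markers and 6 layer markers in each of the 5 hippocampi (red points) and 5 neocortices (blue points), with the mean of each region as a line. The points of the 2 regions do not overlap for any of the 12 genes, and Wfs1 comes closest. Groups did not overlap in 26.5% of all genes tested. The 12 are a selection from the lists, without a layer 5 marker. Among members not drawn, Mpped1 and Scnn1a overlapped, and the field markers Coch and Pcp4 were higher in the neocortex.

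All 6 markers of layers 2/3 were higher in the neocortex (18.0% of all genes were), 5 of them by at least 2-fold (2.86% of all genes). Lamp5, a membrane protein of upper-layer and some inhibitory neurons, was at 225, 289, 244, 267 and 274 CPM in neocortical samples 1 to 5 and at 53.1, 48.3, 35.1, 36.1 and 48.2 CPM in the hippocampal samples. Every neocortex exceeded every hippocampus by 4.23-fold or more, and the log2 fold change was -2.56 ± 0.11 (adjusted p = 3.35e-09). The homeobox factors Cux2 and Cux1, which shape upper-layer dendrites, had values of -1.78 and -0.94, the lipid transfer domain protein Stard8 -1.55, Otof (otoferlin, a vesicle fusion protein) -1.399 and the Ras exchange factor Rasgrf2 -1.09. Layer 4 had 4 of 5 markers higher in the neocortex: Rspo1, the potassium channel Kcnh5 (-2.32), the nuclear receptor Rorb (20.1 ± 1.86 CPM in the hippocampus and 51.3 ± 6.505 CPM in the neocortex) and Whrn, a scaffold protein (-0.46). The fifth, the sodium channel subunit Scnn1a, was low in both regions (7.93 ± 1.97 CPM in the hippocampus and 4.86 ± 1.49 CPM in the neocortex) and its values overlapped. It was called in the hippocampal direction (0.703, adjusted p = 0.0242), and lost that call without hippocampal sample 3 (adjusted p = 0.0589), without hippocampal sample 4 (adjusted p = 0.0526) and without neocortical sample 2 (adjusted p = 0.0576).

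Of 8 layer 5 markers tested, 1 was higher in the neocortex, 3 were higher in the hippocampus and 4 were not called. Both counts stand against 18.0% and 18.1% of all genes, as do those of layers 6 and 6b. Deptor, an inhibitor of mTOR, was the one higher in the neocortex (-1.34), a count that rose to 2 without hippocampal sample 1. Bcl11b, the factor of corticospinal neurons also known as Ctip2, was at 131, 139.8, 144, 143 and 126 CPM in the hippocampal and 51.9, 58.6, 58.8, 53.1 and 57.1 CPM in the neocortical samples. The hippocampus was higher in every sample, by 2.44-fold on average (adjusted p = 1.8e-09). Npr3, a clearance receptor for natriuretic peptides, was at 0.59, and Etv1, an ETS factor, at 0.34, with a call that was lost with an offset for transcript length (adjusted p = 0.0935) and without hippocampal sample 3 and neocortical sample 2 together (adjusted p = 0.0614). Fezf2, the factor that specifies subcerebral neurons, was at 31.5 ± 3.04 CPM in the hippocampus and 33.3 ± 7.07 CPM in the neocortex (adjusted p = 0.66), and Parm1 at 79.4 ± 8.24 CPM in the hippocampus and 74.3 ± 12.3 CPM in the neocortex (adjusted p = 0.534). In layer 6, 3 of 6 markers were higher in the neocortex, and 4 without hippocampal sample 3. Those were the synaptotagmin Syt6 (-1.78), the cell cycle regulator Rprm (-1.29) and Foxp2, a forkhead factor of corticothalamic neurons, at -1.73. Foxp2 was at 10.4 CPM in hippocampal sample 5 and at 2.97 to 4.62 CPM in the other hippocampi, and without that sample its log2 fold change was -2.14. The corepressor Tle4 (-0.11) and the neurotensin receptor Ntsr1 (-0.45) were not called. In layer 6b, Cplx3 (complexin 3) and Ccn2, a secreted matrix protein, were 2.28- and 2.27-fold higher in the neocortex and the other 2 of 4 markers were not called.

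Among 34 transcription factors of the pallium, 31 were called, 14 higher in the hippocampus and 17 in the neocortex (36.1% of all genes were called). Without hippocampal sample 3 and neocortical sample 2 together, 11 and 17 were. Mef2c, an activity-regulated factor that controls synapse number, was at 728, 606, 624, 597 and 585 CPM in the neocortical and 218, 173, 115, 147 and 148 CPM in the hippocampal samples. No hippocampal sample came near a neocortical one (-1.97 ± 0.14). Tbr1, a T-box factor of deep-layer neurons, was at 47.02 ± 9.55 CPM in the hippocampus and 147 ± 14.5 CPM in the neocortex. The POU factor Pou3f2, known from upper layers, was at -1.75. On the hippocampal side, beside Prox1, Zbtb20, a zinc finger factor required for hippocampal fields, was at 200.5 ± 22.1 CPM in the hippocampus and 56.3 ± 3.27 CPM in the neocortex. The bHLH factors Bhlhe22 and Neurod6 were at 1.51 and 1.26. Of 4 LIM-only proteins, which bridge transcription factor complexes, Lmo1 (25.1 ± 1.44 CPM in the hippocampus and 4.81 ± 0.748 CPM in the neocortex) and Lmo3 (167 ± 17.6 CPM in the hippocampus and 70.3 ± 9.94 CPM in the neocortex) were higher in the hippocampus and Lmo4 (146 ± 9.54 CPM in the hippocampus and 213 ± 18.1 CPM in the neocortex) in the neocortex.

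**Figure D3:**
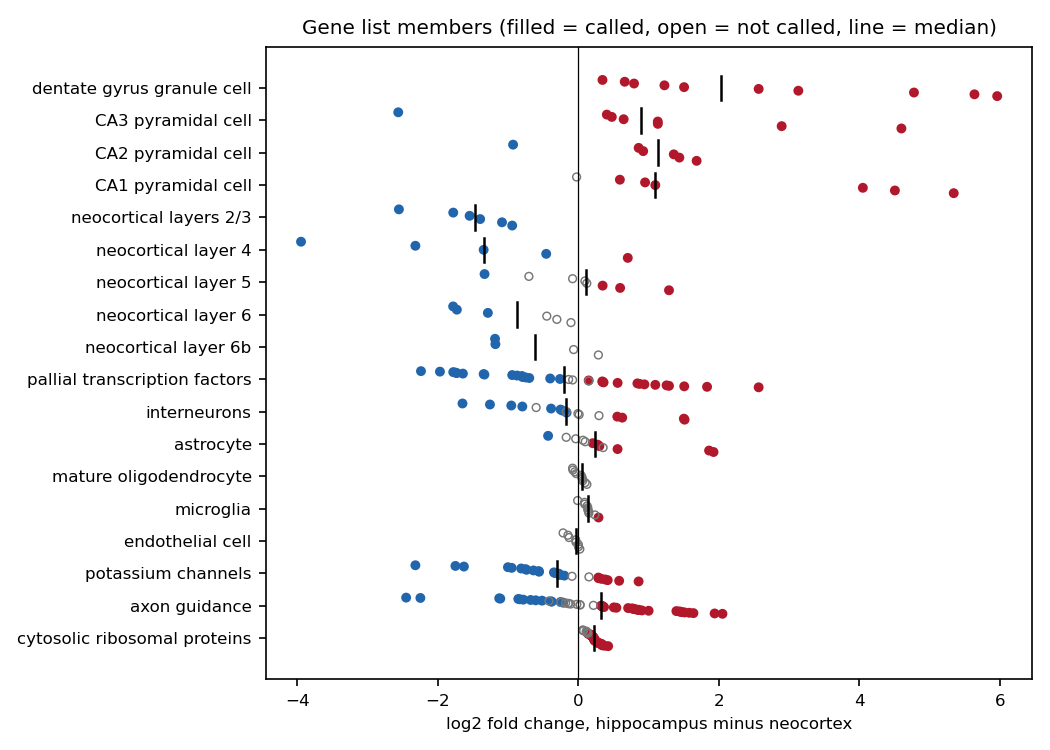
Log2 fold change, hippocampus minus neocortex, on the x axis for the tested members of 18 gene lists, 1 list per row. Filled points were called, red in the hippocampal and blue in the neocortical direction, open points were not called, and the black line is the list's median, from 2.04 for dentate granule cells to -1.47 for layers 2/3.

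Inhibitory neuron markers divided, with 8 of 17 higher in the neocortex and 4 in the hippocampus, against 18.0% and 18.1% of all genes. The GABA-synthesising enzymes Gad1 and Gad2 and the vesicular GABA transporter Slc32a1 differed little (-0.25, -0.17 and -0.39), and Gad2 lost its call without hippocampal sample 3 and neocortical sample 2 together (adjusted p = 0.0827). Vip, the peptide of disinhibitory interneurons, was at 15.6 ± 3.26 CPM in the hippocampus and 37.3 ± 5.24 CPM in the neocortex. Npy, whose Y2 receptor mRNA was so much higher in the hippocampus, was itself higher in the neocortex (41.8 ± 4.89 CPM in the hippocampus and 80.99 ± 13.7 CPM in the neocortex). Parvalbumin (Pvalb), of fast-spiking cells, was at -0.799 and corticotropin-releasing hormone (Crh) at -1.65. Somatostatin (Sst) was not called, at 156 ± 22.3 CPM in the hippocampus and 156 ± 6.32 CPM in the neocortex (adjusted p = 0.959). Neuronal nitric oxide synthase (Nos1, 108 ± 15.7 CPM in the hippocampus and 37.97 ± 4.498 CPM in the neocortex) and calretinin (Calb2, 26.8 ± 10.7 CPM in the hippocampus and 9.43 ± 1.63 CPM in the neocortex) were higher in the hippocampus. So was Trp73, a p53 relative of Cajal-Retzius cells, at a low level (3.297 ± 1.895 CPM in the hippocampus and 0.588 ± 0.2104 CPM in the neocortex), with a log2 fold change of 2.47 and of 2.06 without hippocampal sample 3. Of the other Cajal-Retzius markers, Reln was not called, and Lhx1 and Lhx5 had too few counts to test. Dcx (doublecortin), known from migrating and immature neurons, was higher in the neocortex (15.6 ± 3.31 CPM in the hippocampus and 31.9 ± 3.88 CPM in the neocortex), while 4 of the 7 tested neurogenesis genes were higher in the hippocampus (18.1% of all genes were). Calb2, counted above as an interneuron marker, was among these 4.

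The counts for glial, vascular and blood cell markers stand against 36.1% of all genes called. None of the 10 markers of mature oligodendrocytes was called by edgeR, none had an unadjusted p under 0.05 and none was called by DESeq2, and their median log2 fold change was 0.0446. The same held for all 6 mural cell markers on all 3 counts, and for the 5 blood markers. Of 3 ependymal markers tested none was called by either tool and 1 had an unadjusted p under 0.05, and edgeR called 1 without hippocampal sample 5. Of 8 endothelial markers 0 were called by either tool and 1 had an unadjusted p under 0.05, and edgeR called 2 without neocortical sample 1. Of 10 microglial markers 1 was called, Tmem119 (0.28), which rose to 2 without hippocampal sample 5 or neocortical sample 5. Of 7 oligodendrocyte precursor markers 2 were called, with Olig1 at 0.22, a number that fell to 1 in 5 and rose to 3 in 1 of the 10 fits that left out 1 sample. Of 12 astrocyte markers 6 were higher in the hippocampus (18.1% of all genes were), and 5 to 7 when 1 sample was left out. Gfap, the intermediate filament of astrocytes, was at 405, 466, 467, 436 and 344 CPM in the hippocampal and 121, 101, 110.1, 97.8 and 127 CPM in the neocortical samples. The regions did not overlap, and Gfap was 3.79-fold higher in the hippocampus (adjusted p = 8.49e-09). Agt (angiotensinogen) was at 24.6 ± 5.41 CPM in the hippocampus and 6.75 ± 1.75 CPM in the neocortex and the water channel Aqp4 at 142 ± 10.9 CPM in the hippocampus and 96.7 ± 10.3 CPM in the neocortex. Aldh1l1, a folate enzyme used as a general astrocyte marker, was higher in the neocortex (-0.43).

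Most of the difference in choroid plexus genes came with 1 library. Ttr (transthyretin, a secreted thyroid hormone carrier) was at 19.8, 54.1, 4293, 80.1 and 26.7 CPM in hippocampal samples 1 to 5 and at 13.6, 46.01, 31.1, 16.8 and 10.01 CPM in neocortical samples 1 to 5. Apart from hippocampal sample 3 the ranges of the regions overlapped, and the log2 fold change went from 5.25 (adjusted p = 0.0137) to 0.95 (adjusted p = 0.131) without that sample. Otx2, a homeobox factor, and Clic6, a chloride channel protein, likewise lost their calls without it (0.83 and 0.44, adjusted p = 0.206 and 0.271). Clic6 also lost its call without any 1 neocortical sample, and Otx2 without neocortical sample 1, 2, 4 or 5. Of the 6 markers tested, 6 were called with all samples (36.1% of all genes were) and 3 without hippocampal sample 3. Without hippocampal sample 3 and neocortical sample 2 together 4 were called, Ttr among them. Kl (klotho) kept its call: at 17.3, 19.4, 109, 22.3 and 17.1 CPM against 2.83, 3.23, 3.33, 2.17 and 2.72 CPM, it was higher in all 5 hippocampi than in any neocortex, and its log2 fold change was 3.698 with and 2.74 without sample 3. The prolactin receptor Prlr (2.85 with and 1.33 without sample 3) and the BMP antagonist Sostdc1 (3.75 and 1.79) also kept theirs. DESeq2, which withholds the p-value of a gene with an outlying count, gave none for the 6. The matrix protein Dcn (decorin), a meningeal marker, was at 1.73 with and 1.61 without that sample.

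Striatal markers moved less with neocortical sample 2. Ppp1r1b (DARPP-32, a phosphatase inhibitor) was at 70.4, 159, 90.5, 83.6 and 75.2 CPM in the neocortical and 53.01, 55.3, 76.3, 39.7 and 50.5 CPM in the hippocampal samples. Neocortical sample 2 was far the highest, and hippocampal sample 3 reached into the neocortical range. Its log2 fold change went from -0.797 to -0.54 and the dopamine receptor Drd1 from -0.73 to -0.44 without sample 2, both still called, though Drd1 was not without hippocampal sample 3 (adjusted p = 0.053). Of the thalamic markers, Tcf7l2, a Wnt effector, was at 7.498, 8.65, 6.13, 5.55 and 43.9 CPM in the hippocampal samples and at 4.45 to 6.67 CPM in the neocortical samples. Its log2 fold change fell from 1.49 to 0.47 without hippocampal sample 5, and its call was lost when any 1 neocortical sample was left out, with adjusted p from 0.0607 to 0.087. The kinase gene Prkcd (1.45) and Ntng1 (netrin G1, 1.44) did not depend on that sample, at 1.47 and 1.45 without it.

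The subunits of AMPA receptors, which carry most fast excitatory current, differed in kind. Gria1, the subunit tied to activity-dependent insertion at synapses, was at 799, 869, 988, 935 and 816 CPM in the hippocampal and 287, 275, 290.1, 257 and 291 CPM in the neocortical samples. Every hippocampus held 2.75 or more times as much as any neocortex, and the log2 fold change was 1.65 ± 0.0642 (adjusted p = 1.25e-09). Gria2, which makes the receptor calcium-impermeable, was at 0.19 and lost its call with an offset for transcript length (adjusted p = 0.0554). Gria3 and Gria4 were higher in the neocortex (-0.44 and -0.85). Auxiliary subunits, which set trafficking and gating, were 5 higher in the hippocampus and 4 in the neocortex of 12, with 36.1% of all genes called. Besides Shisa6, Cnih2 (cornichon 2) was at 345 ± 22.6 CPM in the hippocampus and 117 ± 11.3 CPM in the neocortex and Cacng8 (TARP gamma-8) at 35.4 ± 2.96 CPM in the hippocampus and 16.9 ± 0.734 CPM in the neocortex. Cacng3 (-0.89) and Gsg1l (-0.87) led the neocortical side.

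Of 6 NMDA receptor subunits tested, 3 were higher in the hippocampus and none in the neocortex (18.1% and 18.0% of all genes were), with Grin2a at 0.603 and Grin2b at 0.39. Among the 10 fits that left out 1 sample, the hippocampal count rose to 4 in 1 and the neocortical count to 1 in 1. Among kainate receptor genes, Grik4 of CA3 was the highest in the hippocampal direction and Grik3 (54.6 ± 7.55 CPM in the hippocampus and 104 ± 10.3 CPM in the neocortex) in the neocortical. The group I metabotropic receptor Grm5 (208 ± 13.7 CPM in the hippocampus and 130.1 ± 12.03 CPM in the neocortex) was higher in the hippocampus and Grm8, a presynaptic receptor, in the neocortex (-1.09). The vesicular glutamate transporter Slc17a7, used by most neurons of both regions, was at 1349 ± 43.7 CPM in the hippocampus and 1275 ± 87.6 CPM in the neocortex and was not called (adjusted p = 0.241).

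GABA-A receptor subunits were called in 10 of 12 cases (36.1% of all genes were), 4 higher in the hippocampus and 6 in the neocortex. Gabra5, of receptors that carry tonic and slow dendritic inhibition, was at 179.8, 193, 202, 204 and 169 CPM in the hippocampal and 48.4, 48.6, 56.95, 48.3 and 58.8 CPM in the neocortical samples, a 3.63-fold difference without overlap (adjusted p = 1.41e-09). Gabra2 (0.602) was also higher in the hippocampus. Gabrd, of extrasynaptic receptors and known from dentate granule cells and the thalamus, was higher in the neocortex (25.4 ± 2.68 CPM in the hippocampus and 68.02 ± 6.77 CPM in the neocortex). Gabra3, another alpha subunit, was at -1.24.

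**Figure D4:**
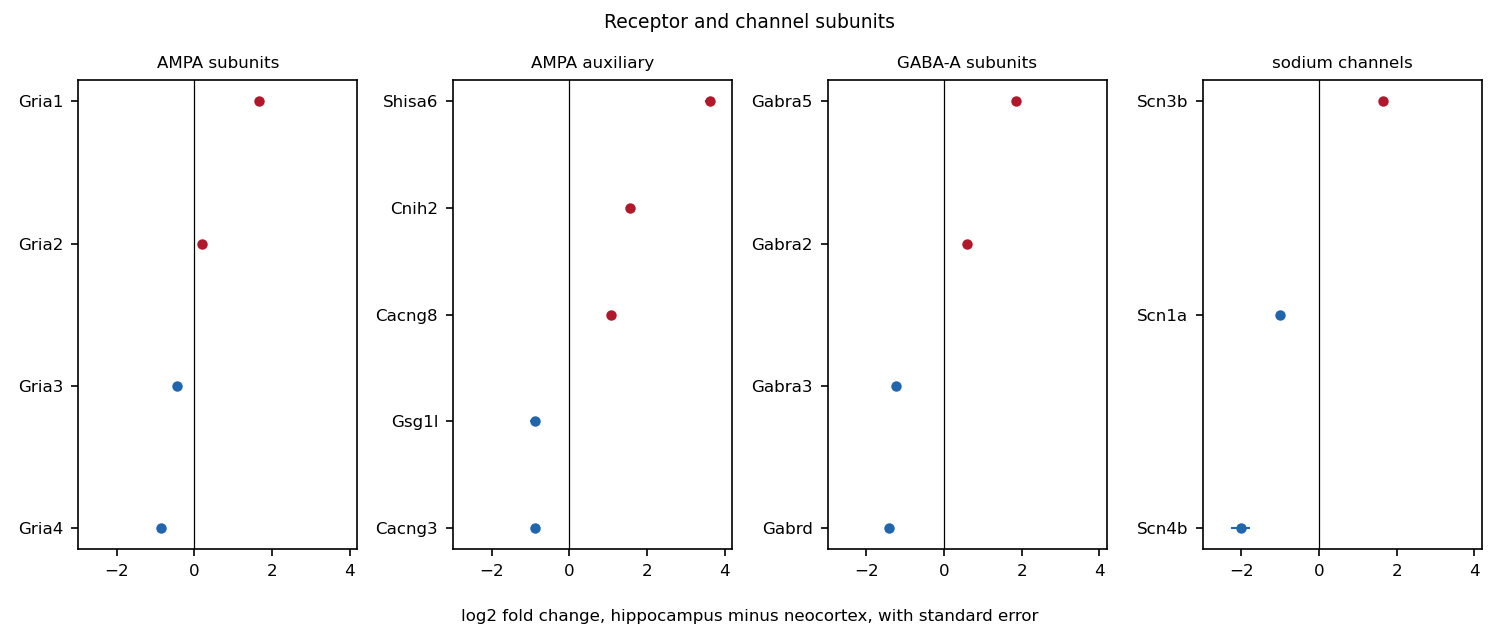
Log2 fold change, hippocampus minus neocortex, on the x axis with its standard error for the AMPA receptor subunits, AMPA auxiliary subunits, GABA-A receptor subunits and voltage-gated sodium channel genes named in the text. Red and blue points were called in the hippocampal and neocortical direction. Gria1 (1.65), Shisa6 (3.63), Gabra5 (1.86) and Scn3b (1.66) stand out to the right, and Scn4b, Gabrd and Gabra3 lie furthest to the left.

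Of 26 potassium channel genes 17 were higher in the neocortex and 7 in the hippocampus (median -0.307), against 18.0% and 18.1% of all genes. The 17 became 14 to 17 when 1 sample was left out. Kcnh7, of the ERG family, was at 47.9 ± 8.53 CPM in the hippocampus and 148 ± 18.5 CPM in the neocortex. The auxiliary subunits of the A-type channel Kv4 split: Dpp10 was at 48.4 ± 14.6 CPM in the hippocampus and 163 ± 12.5 CPM in the neocortex and Dpp6 at 335 ± 12.9 CPM in the hippocampus and 185 ± 14.8 CPM in the neocortex. The channel itself, Kcnd2, and its partner Kcnip2 were moderately higher in the hippocampus (0.38 and 0.42). None of 5 HCN channel genes was called by either tool, with 1 at an unadjusted p under 0.05. One was called in the neocortical direction when hippocampal sample 4 or 5, or neocortical sample 2 or 3, was left out. Sodium channel beta subunits went opposite ways: Scn4b was at 91.5, 211, 143, 151 and 120.0 CPM in the neocortical and 30.5, 52.3, 23.9, 25.7 and 43.8 CPM in the hippocampal samples. Scn3b was at 266, 251, 258, 261 and 238 CPM in the hippocampal and 94.98, 75.4, 85.6, 65.7 and 82.7 CPM in the neocortical samples. Neither overlapped, at -2.02 ± 0.24 and 1.66 ± 0.0805. Scn1a, the alpha subunit of fast-spiking interneurons, was 2.01-fold higher in the neocortex, and the T-type calcium channel Cacna1h 3.001-fold higher in the hippocampus.

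Receptors for modulators went both ways. Of 11 serotonin receptors tested 5 were higher in the hippocampus and 3 in the neocortex, of 10 dopamine and noradrenaline receptors 3 and 4, and of 9 acetylcholine receptors 4 and 4, with 36.1% of all genes called. The 3 serotonin receptors became 2 in 6 of the 10 fits that left out 1 sample. In those fits the hippocampal count of acetylcholine receptors ranged from 3 to 5. The neocortical count of dopamine and noradrenaline receptors fell to 3 in 1 fit. The serotonin receptor Htr4 was at 8.403, 12.2, 13.4, 11.7 and 9.62 CPM in the hippocampal and 0.809, 2.01, 1.63, 0.421 and 1.02 CPM in the neocortical samples, without overlap (3.22 ± 0.27). Htr5b (2.48) and Htr1a (33.3 ± 3.51 CPM in the hippocampus and 14.4 ± 1.54 CPM in the neocortex) were also higher in the hippocampus, and Htr2a, the main receptor of classical psychedelics, higher in the neocortex (11.7 ± 1.698 CPM in the hippocampus and 25.1 ± 6.27 CPM in the neocortex). The dopamine receptor Drd5 was at 12.7, 14.4, 17.8, 15.2 and 14.6 CPM in the hippocampal and 0.674, 1.94, 1.18, 1.05 and 2.18 CPM in the neocortical samples. Its lowest hippocampal value was 5.82 times its highest neocortical one, and the log2 fold change was 3.41 ± 0.21. The noradrenaline receptor Adrb1 was higher in the neocortex (-1.07), like Adra1b. Among acetylcholine receptors, Chrm2 (-1.44) was higher in the neocortex, and Chrm1 (0.36) and the nicotinic Chrna7 (0.89) higher in the hippocampus.

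Corticosteroid receptors were opposed. Nr3c2, the mineralocorticoid receptor, was at 154, 180.4, 181, 188 and 152 CPM in the hippocampal and 39.8, 34.2, 37.5, 31.6 and 36.6 CPM in the neocortical samples, a 4.76-fold difference without overlap (adjusted p = 4.53e-10). Nr3c1, the glucocorticoid receptor, was at 83.03 ± 7.89 CPM in the hippocampus and 123 ± 9.77 CPM in the neocortex, higher in the neocortex. Their target Fkbp5, a chaperone that restrains the glucocorticoid receptor, was at 54.9 ± 5.31 CPM in the hippocampus and 20.7 ± 1.58 CPM in the neocortex, and the stress hormone receptor Crhr1 was at 13.4 ± 2.69 CPM in the hippocampus and 26.8 ± 1.87 CPM in the neocortex. Of 20 neuropeptide genes tested, 8 were higher in the neocortex (18.0% of all genes were) and 4 in the hippocampus, about the share of all genes (18.1%). Neurotensin (Nts, 4.77 ± 1.06 CPM in the hippocampus and 0.463 ± 0.189 CPM in the neocortex) and gastrin-releasing peptide (Grp, 1.18) were higher in the hippocampus, and PACAP (Adcyap1, -1.66) and the CART precursor (Cartpt, -1.77) in the neocortex. The neurotrophin Ntf3, made by granule cells, was at 4.49 ± 0.598 CPM in the hippocampus and 0.667 ± 0.205 CPM in the neocortex, and Bdnf at 40.7 ± 5.38 CPM in the hippocampus and 29.9 ± 4.78 CPM in the neocortex.

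Among calcium/calmodulin-dependent kinases, which act downstream of synaptic calcium, 6 of 12 were higher in the hippocampus and 5 in the neocortex, with 36.1% of all genes called. Camk2b (1280.3 ± 88.3 CPM in the hippocampus and 753 ± 48.6 CPM in the neocortex) and Camk2a (0.304) were higher in the hippocampus, while Camkk2 (144 ± 10.3 CPM in the hippocampus and 313 ± 37.6 CPM in the neocortex) and Camk4 (-0.87) were higher in the neocortex, as was the inhibitor Camk2n1. Immediate early genes, transcribed within minutes of activity, were 8 higher in the neocortex and 3 in the hippocampus of 18, against 18.0% and 18.1% of all genes. Egr1 was at 481, 468, 546, 406 and 445 CPM in the neocortical and 121, 226, 144, 102 and 189 CPM in the hippocampal samples, and though the hippocampal values varied 2.22-fold they did not reach the neocortical ones (-1.58 ± 0.18). Homer1 (-1.33) followed. Fos was at 5.69, 27.1, 15.3, 7.50 and 19.9 CPM in the hippocampal and 15.98, 31.7, 61.2, 25.8 and 30.6 CPM in the neocortical samples and Npas4 at 6.59, 20.6, 13.4, 4.92 and 19.1 and 15.2, 30.9, 37.6, 14.6 and 34.1 CPM. Both overlapped between regions and their calls (-1.13, adjusted p = 0.0416, and -1.03, adjusted p = 0.0446) were not kept by DESeq2 (adjusted p = 0.0645 and 0.0732). The Fos call was kept in 3 and the Npas4 call in 4 of the 10 fits that left out 1 sample, in which adjusted p reached 0.137 and 0.116 without neocortical sample 3. Arc was not called (-0.67, adjusted p = 0.255). Jun (72.8 ± 14.8 CPM in the hippocampus and 24.2 ± 2.003 CPM in the neocortex) and Nr4a3 (88.8 ± 12.4 CPM in the hippocampus and 35.4 ± 7.84 CPM in the neocortex) were higher in the hippocampus. The list's 8 neocortical calls ranged from 5 to 10 when 1 sample was left out, were 6 by DESeq2, and fell to 5 without hippocampal sample 1 or 4 or neocortical sample 3, and also without hippocampal sample 3 and neocortical sample 2 together.

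Secreted and surface proteins that link neurons also differed, and the counts below stand against 18.1% of all genes higher in the hippocampus and 18.0% higher in the neocortex. Of 11 C1q-like, pentraxin and related synaptic proteins, 6 were higher in the hippocampus and 3 in the neocortex: C1ql2 and Nptx1 (660.2 ± 78.4 CPM in the hippocampus and 415 ± 21.1 CPM in the neocortex) on the one hand, and Cbln2 (9.05 ± 4.101 CPM in the hippocampus and 41.6 ± 6.62 CPM in the neocortex) and Nptx2 (19.5 ± 2.18 CPM in the hippocampus and 53.1 ± 6.12 CPM in the neocortex), an activity-induced pentraxin, on the other. The 6 fell to 5 in 6 of the 10 fits that left out 1 sample, and the 3 rose to 4 in 1. Of 15 cadherins, 7 were higher in the neocortex, led by Cdh6 (-1.82), and 3 in the hippocampus, led by Cdh9 (1.42), a cadherin of mossy fibre synapses. Of 49 axon guidance genes, 39 were called, 25 higher in the hippocampus and 14 in the neocortex (median 0.323). The receptor Epha6 (28.7 ± 1.91 CPM in the hippocampus and 6.92 ± 1.94 CPM in the neocortex), the secreted repellent Slit1 (195 ± 29.4 CPM in the hippocampus and 50.9 ± 5.65 CPM in the neocortex) and Nrp2, a semaphorin receptor (63.2 ± 11.4 CPM in the hippocampus and 21.1 ± 3.74 CPM in the neocortex), were higher in the hippocampus. The ligand Efna5 (6.19 ± 0.633 CPM in the hippocampus and 33.8 ± 4.296 CPM in the neocortex) and the repellent Sema3a (5.95 ± 3.27 CPM in the hippocampus and 28.6 ± 4.82 CPM in the neocortex) were higher in the neocortex. Cytosolic ribosomal protein genes differed little but in one direction, with 31 of 40 called higher in the hippocampus, none lower and a median of 0.218. The 31 ranged from 28 to 35 when 1 sample was left out. Rplp1 had the largest difference, at 0.42. Of the 13 mRNAs of the mitochondrial genome 1 was called, and none in 5 of the 10 fits that left out 1 sample.

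At the level of single transcripts, 3562 of 35272 tested (10.1%) were called, 1861 (5.28%) higher in the hippocampus and 1701 (4.82%) higher in the neocortex. Without hippocampal sample 3 and neocortical sample 2, 2326 were called. By annotated type, 12.7% of the 24330 protein-coding transcripts were called and 3.80% of the 5872 with a retained intron, 80 of the latter higher in the hippocampus and 143 in the neocortex. Genes in which the division among transcripts differed, rather than the total, were tested next. Of 8688 genes with at least 2 transcripts tested, 32 (0.368%) were called by diffSpliceDGE, 44 (0.506%) by limma on the log ratio of a transcript to the rest of its gene, and 17 by both. The 32 rose to 64 without hippocampal sample 5, and to 49 to 52 without hippocampal sample 1, 2 or 4 or neocortical sample 1, and the gene-level F test called 117. In simulated data with transcripts changed 4-fold, 34.2% of the diffSpliceDGE calls and 6.25% of the limma calls were false, so the genes below are those called by both unless stated. Of simulated 2-fold changes of a transcript, diffSpliceDGE found 1% of the genes and limma 0%, so these counts say little about differences of that size. Since the estimates divide reads among transcripts that overlap, a share is less certain than a gene total.

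Rapgef5 encodes an exchange factor for Rap GTPases. The share of its TPM held by Rapgef5-206 (16 exons, 580 amino acids, GRCm38 chr12:117688836-117759737, forward strand) was 90.7, 91.7, 92.9, 90.4 and 91.6% in hippocampal samples 1 to 5 and 77.2, 75.4, 77.4, 77.3 and 77.99% in neocortical samples 1 to 5. The regions did not overlap. For the gene, the adjusted p was 2.33e-05 by diffSpliceDGE and 0.00523 by limma, the latter being the value of Rapgef5-201. Rapgef5-206 itself had an unadjusted p of 0.0917 by diffSpliceDGE and an adjusted p of 0.00727 by limma. Adjusted p-values by diffSpliceDGE, here and below, are for the gene. The longer Rapgef5-201 (28 exons, 814 amino acids, chr12:117516479-117759737, forward strand), which starts upstream, made up 5.49% ± 1.24 of the gene in the hippocampus and 17.5% ± 2.67 in the neocortex. Its CPM were lower in the hippocampus even as the gene total was higher there.

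Dtna (alpha-dystrobrevin) is part of the dystrophin complex of membranes. Dtna-206 (18 exons, 567 amino acids) held 22.5, 22.04, 23.4, 25.1 and 21.1% of the gene in the hippocampal and 43.5, 39.9, 37.02, 40.8 and 37.3% in the neocortical samples, and Dtna-202 (21 exons, 682 amino acids), which runs further downstream, 38.2% ± 4.17 and 29.4% ± 1.67. The shares of Dtna-206 did not overlap (adjusted p = 0.0434 and 0.00289). Osbp2, an oxysterol-binding protein, has transcripts that start far apart. The long Osbp2-201 (14 exons, 908 amino acids, chr11:3703731-3863903, reverse strand) held 13.4, 18.99, 31.3, 24 and 18.99% in the hippocampal and 4.92, 6.57, 5.399, 5.71 and 3.76% in the neocortical samples, again without overlap (adjusted p = 0.0069 and 0.0177). The shorter Osbp2-203 (455 amino acids, chr11:3703731-3722216, reverse strand) held 44.3% ± 7.09 and 49.6% ± 4.39.

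Trim9 encodes a brain ubiquitin ligase. Its retained-intron transcript Trim9-210 held 10.4% ± 1.32 of the gene in the hippocampus and 20.4% ± 2.496 in the neocortex, Trim9-201 (714 amino acids) 6.37% ± 3.03 and 0.154% ± 0.291, and Trim9-202 (788 amino acids) 52.6% ± 3.49 and 43.4% ± 2.04. The gene total was not called (adjusted p = 0.0869), but was called higher in the neocortex with an offset for transcript length (-0.32) and without hippocampal sample 4 (-0.13). In Zfand6, a zinc finger protein, Zfand6-203 was at 10.8% ± 5.32 in the hippocampus and at 0 in the neocortex, and Zfand6-201 at 33.1% ± 6.77 and 46.97% ± 7.17, with overlap between samples. Gtf3c6-201, of a subunit of an RNA polymerase III factor, was at 14.03% ± 5.49 and 0.506% ± 0.516, and Ccdc106-205 at 13.6% ± 5.55 and 0.442% ± 0.987, both without overlap.

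Il16 and Npy2r, both much higher in the hippocampus, also changed in make-up. Il16 was at 38.6 CPM in the hippocampus and 3.38 CPM in the neocortex, so its neocortical shares rest on few counts. Il16-203, which encodes a shorter form (7 exons, 624 amino acids, chr7:83642848-83655495, reverse strand), held 32.6, 17.2, 23.8, 17.7 and 32.5% of Il16 in the hippocampal and 82.4, 71.2, 92.6, 81.6 and 73.02% in the neocortical samples (adjusted p = 4.21e-04 and 0.0238). The long Il16-201 (19 exons, 1322 amino acids, chr7:83642825-83735523, reverse strand) held 43.95% ± 3.53 and 8.98% ± 5.74. Npy2r-201 held 31.9% ± 8.98 of Npy2r in the hippocampus and was listed at about 0 in the neocortex, where the gene itself was at 2.75 ± 1.37 CPM, and it codes for the same 381 amino acids as Npy2r-202. Ndst4-204 likewise held 60.5% ± 10.7 in the hippocampus and 0 in the neocortex, where Ndst4 was at 1.82 ± 1.02 CPM. Pla2g4a, a cytosolic phospholipase named after its values were seen, was at 3.03 CPM in the hippocampus and 3.24 CPM in the neocortex. Pla2g4a-201 (748 amino acids) held 68.7% ± 30.9 of it in the neocortex and at most 0.00262% in any hippocampus, and Pla2g4a-202 (740 amino acids) held 63.99% ± 21.2 in the hippocampus and 0 in the neocortex.

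Called by diffSpliceDGE alone were the shares of Trim2-206 (11.5% ± 8.41 in the hippocampus and 37.2% ± 7.12 in the neocortex), Synpr-202 (2.25% ± 1.99 and 22.2% ± 8.28), Slc25a51-202 (51.7% ± 12.2 and 73.6% ± 7.17), Ipo4-206 (13.3% ± 2.69 and 0.639% ± 1.39) and Rnps1-203 (65.5% ± 6.17 and 77.6% ± 3.63). In 17 genes, transcripts of the same gene were called in opposite directions. Besides Rapgef5, Dtna, Osbp2, Trim9 and Pla2g4a they included, chosen here after their values were seen, Ensa (an inhibitor of protein phosphatase), whose Ensa-201 was at 186 CPM in the hippocampus and 145 CPM in the neocortex while Ensa-202 was at 88.4 and 127 CPM. Pnkd-202 was at 108 and 56.9 CPM in the hippocampus and the neocortex, and Pnkd-201 at 94.6 and 129 CPM.

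**Figure D5:**
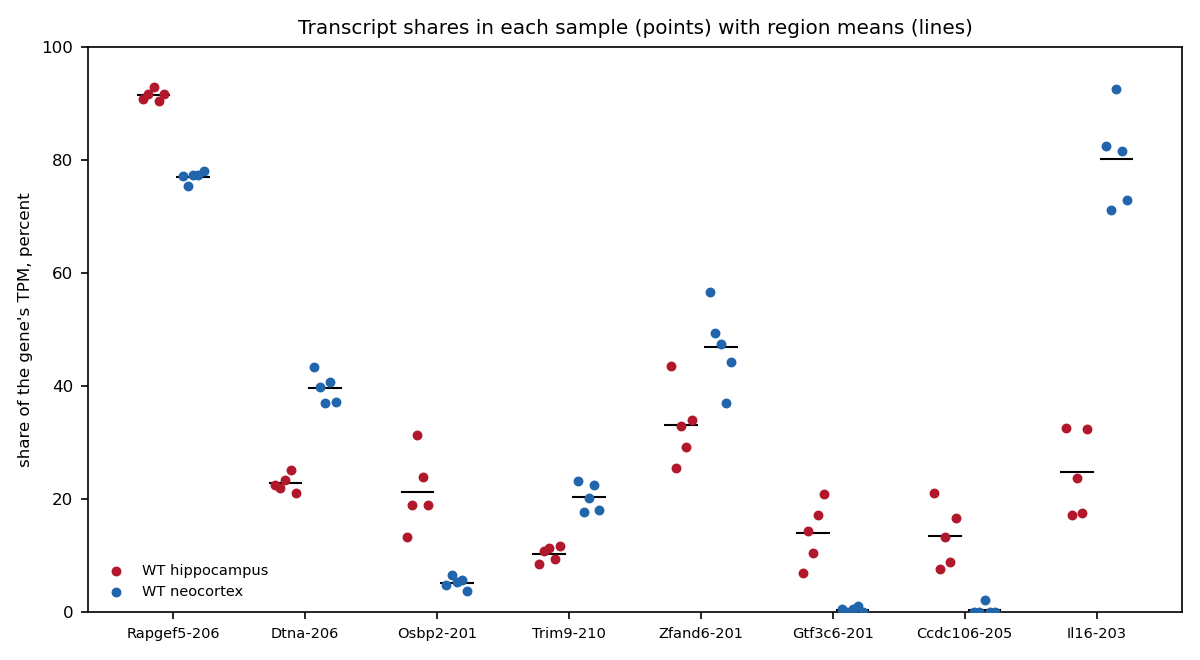
Share of the gene's TPM, in percent, held by 1 transcript of each of 8 genes in each of the 5 hippocampi (red points) and 5 neocortices (blue points), with the mean of each region as a line. Shares of the 2 regions do not overlap except for Zfand6-201, and the difference is largest for Il16-203.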

How the data were processed

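Total RNA (mirVana) from each tissue was made into TruSeq Stranded mRNA libraries and sequenced on a NextSeq instrument. The authors deposited, per sample, transcript tables of estimated counts (expected counts, not whole numbers), TPM and effective lengths (other), made with kallisto against the GRCm38 release 92 transcriptome. The submitters' processing notes name GRCh38 as the build, while the transcript identifiers in the files are those of the mouse. The authors' deposited TPM values are relative to a sample's total and keep no depth, and were used for transcript shares and for levels between genes. The version of kallisto and whether strand was used in counting are not given in the sources used here.

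Of 115270 transcripts, 113580 matched the GENCODE M21 annotation (GRCm38). The other 1690 held at most 0.551% of a sample's counts and were left out. Estimated counts were summed to 35580 genes, rounded and tested with edgeR 4.0.16 (TMM, filterByExpr, quasi-likelihood test, Benjamini-Hochberg adjustment) in R 4.3.3 over the 10 WT samples with no covariate. Transcripts were tested in the same way, and shares by diffSpliceDGE (Simes) and limma 3.58.1 (pseudocount 0.5). CPM are counts scaled to the TMM library size. Depth was 12752439 to 15857771 estimated counts per sample, and the SD over 5 samples holds counting error as well as the spread between samples. Alternatives were DESeq2 1.42.0 (test and size factors), no filter, at least 10 counts in every sample, a transcript-length offset, library sizes without mitochondrial mRNAs, a replicate block and leaving out each sample. The limma share test and the fit without hippocampal sample 3 and neocortical sample 2 were added after seeing the data. On simulated counts with 200 genes changed 2-fold, edgeR recovered 98% with 3.92% false calls. For transcripts it recovered 41.5% at 2-fold and 76% at 4-fold, and for shares diffSpliceDGE recovered 1% of 2-fold and 25% of 4-fold changes and limma 0% and 52.5%. No pair of libraries agreed within sampling noise.

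The members and the 51 gene lists were chosen with earlier results of these data known. Named genes were the 15 largest differences per direction among called genes of at least 10 CPM in the higher region without overlap, the 10 of highest TPM per direction with a 2-fold difference, up to 4 called members per direction of a list and members not called, of which a selection is named, and the 12 largest share changes in genes of at least 10 CPM in both regions. Some genes that met this rule are not reported here.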

Additional observations from a re-analysis of the deposited data

Results flagged for a closer look

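In 39 of 498 groups of 5 values (the CPM of a named gene or the summed CPM of a list, in 1 region), 1 sample lay apart from the other 4 by more than 0.71 of the whole range, a share of 7.83%. Chance alone sets about 1 in 20 such groups apart.

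Hippocampal sample 3 held 15 of them. Its summed choroid plexus markers were at 4598 CPM, its blood markers at 1377 CPM and its ependymal markers at 39.6 CPM, against at most 112, 635 and 17.8 CPM in the other hippocampi. Ttr was at 4293 CPM, Kl at 109 CPM, Clic6 at 44.8 CPM, Prlr at 31.0 CPM, Sostdc1 at 30.3 CPM and Otx2 at 13.3 CPM, all the highest of the hippocampi. Also highest there were Amigo2 (29.4 CPM), Npr3 (25.5 CPM), Trp73 (6.58 CPM) and the summed layer 6 markers (117 CPM). Grm8 (4.58 CPM) and Drd1 (4.97 CPM) were lowest there.

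Hippocampal sample 5 was the highest for the thalamic marker Tcf7l2 (43.9 CPM) and the layer 6 marker Foxp2 (10.4 CPM), which is also made in the thalamus. It was the lowest for the summed calcium/calmodulin kinases (6736 CPM), Camk2a (3817 CPM), the summed LIM-only genes (309 CPM), Lmo4 (129.5 CPM) and Aqp4 (123 CPM). In hippocampal sample 1, Igfn1 (16.5 CPM) and Myl4 (3.56 CPM) were highest, and in sample 4 Parm1 (93.5 CPM).

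In neocortical sample 2 the summed striatal markers (563 CPM), Hpca (513 CPM), Arpp19 (378 CPM), Ppp1r1b (159 CPM) and Drd1 (18.4 CPM) were highest. In neocortical sample 1 the summed pallial transcription factors (3108 CPM) and Mef2c (728 CPM) were highest. In sample 3, Ndst4 was highest (3.60 CPM), and Stx1a (282 CPM) and Aldh1l1 (57.0 CPM) were lowest. In sample 4, Chrm2 was highest (23.3 CPM), and Wfs1 (51.1 CPM) and Nts (0.14 CPM) were lowest, and in sample 5 Tcf7l2 was highest (6.67 CPM).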

How the results depend on the processing

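Of 198 named genes, 172 had a value in every alternative fit and 159 of these kept their direction and their side of the threshold in all of them. Of the 26 without a value somewhere, 21 fell under the minimum of 10 counts and 7 had no adjusted p from DESeq2, 2 of them both. With the transcript-length offset Drd1, Etv1, Gria2, Hapln1, Npas4, Otx2 and Tcf7l2 lost their calls (edgeR adjusted p from 0.0516 to 0.378) and Trim9 gained one. Gene counts stayed within 1.5 times of the reported count in every alternative fit: 5362 genes were called with DESeq2 size factors, 5165 without a filter and also 5165 with at least 10 counts in every sample, 5300 by DESeq2, 4329 with a transcript-length offset, 5391 without mitochondrial mRNAs in the library size, and 4799 to 5411 when 1 sample was left out. Transcripts called fell to 2326 without hippocampal sample 3 and neocortical sample 2, rose to 4987 by DESeq2, and ranged from 2779 to 3453 when 1 sample was left out. Genes with a share difference numbered 32 by Simes and 117 by the gene-level F test, 31 without those 2 samples and 34 to 64 when 1 sample was left out. The cause was not tested. Same-numbered samples were not paired: their deviations correlated at 0.093, 0.076, 0.089, 0.028 and -0.14, and not every sample correlated best with its own number. With the replicate number as a block, 5044 genes, 2181 transcripts and 28 share genes were called, Arc was called (adjusted p = 0.00391) and Ttr and Clic6 were not (adjusted p = 0.107 and 0.0525). Genes that were not called changed sign: Mpped1 was at 0.034 without hippocampal sample 3 and neocortical sample 2 and from -0.11 to 0.052 with 1 sample left out, Sst at 0.0028 without that pair and from -0.082 to 0.036, and Fezf2 from -0.19 to 0.034. Depth limits transcript shares in genes of a few CPM.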

Other observations

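Calcium channels also divided by region: 3 of 8 voltage-gated calcium channel genes were higher in the hippocampus and 4 in the neocortex (36.1% of all genes were called), and the 4 fell to 3 in 7 of the 10 fits that left out 1 sample. The R-type channel Cacna1e (413 ± 40.3 CPM in the hippocampus and 271 ± 10.8 CPM in the neocortex) and the L-type channel Cacna1c (114 ± 16.1 CPM in the hippocampus and 77.97 ± 2.76 CPM in the neocortex) joined Cacna1h on the hippocampal side, and the other T-type channels, Cacna1g (57.1 ± 11.8 CPM in the hippocampus and 92.2 ± 2.05 CPM in the neocortex) and Cacna1i (74.7 ± 6.35 CPM in the hippocampus and 124 ± 9.58 CPM in the neocortex), were higher in the neocortex, so the T-type genes went both ways. Among 10 genes of the perineuronal net, the matrix coat of some inhibitory and CA2 neurons, 4 were higher in the hippocampus (18.1% of all genes were) and 1 in the neocortex, and the 4 fell to 3 in 5 of the 10 fits that left out 1 sample. Tenascin C (Tnc) was at 6.17 ± 0.793 CPM in the hippocampus and 2.19 ± 0.543 CPM in the neocortex, the link protein Hapln1 at 23.98 ± 0.987 CPM in the hippocampus and 19.7 ± 1.18 CPM in the neocortex (not called with a transcript-length offset, adjusted p = 0.378) and the link protein Hapln4, the one higher in the neocortex, at 120.1 ± 9.42 CPM in the hippocampus and 162 ± 10.6 CPM in the neocortex. Of 12 genes for transport and recycling of glutamate and GABA, 2 were higher in the hippocampus and 3 in the neocortex, or 41.7% of the list against 36.1% of all genes, a share near the background. The neuronal glutamate transporter Slc1a1 (156 ± 9.71 CPM in the hippocampus and 101 ± 8.38 CPM in the neocortex) was among those higher in the hippocampus. The hippocampal count of 2 fell to 1 without hippocampal sample 1, 2 or 4 or neocortical sample 3 or 4.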
